A study of Homo sapiens with 12 samples.

Results

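Lysosome and autophagy genes were examined in COV362 and PEO1, established human ovarian carcinoma cell lines of epithelial origin. The genes are 39 named members found by an exact match of their symbols among the 26485 genes of the count table, and all 39 were measured in all 12 libraries. They hold 15 genes of the autophagy machinery, the 3 transcription factor genes TFEB, TFE3 and MITF, 14 genes of hydrolases and other lumen proteins, and 7 genes of lysosomal membrane proteins. Polyadenylated RNA was sequenced from each line under 2 conditions, with 3 replicates lettered A, B and C in each of 4 groups: COV362 with DMSO, the vehicle, COV362 with 20 nM prexasertib, PEO1 with DMSO, and PEO1 with 20 nM prexasertib. Prexasertib inhibits CHK1 and CHK2, the checkpoint kinases that hold cells with damaged or unreplicated DNA. Both lines are labelled as parental, and all groups were grown in the same medium, so no allele or agent other than prexasertib separates the drug groups of a line. The labels give 1 dose, no treatment time, and no statement that replicates were separate cultures, so p-values measure only the spread between these libraries, which may be technical.

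In macroautophagy, the ULK1 kinase complex and the BECN1 lipid kinase complex start a double membrane, a pair of ubiquitin-like conjugation reactions attach ATG8-family proteins to it, and receptors such as p62 (SQSTM1) tie cargo to those proteins. The closed vesicle fuses with the lysosome, where hydrolases that work in the acid made by the vacuolar proton pump degrade the content. TFEB, TFE3 and MITF are related basic helix-loop-helix leucine zipper factors that are held in the cytoplasm when the kinase mTORC1 is active. They bind E-box motifs with the core CACGTG, extended in many lysosomal gene promoters to TCACGTGA. Their activity is set largely by where in the cell they are held, so their own transcript levels need not follow it.

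Promoter stretches are printed for the 8 genes that passed the test of a drug comparison and whose 250 bases before the RefSeq start (build GRCh38.p14) held a searched motif. The letters searched on both strands were CACGTG and its extension TCACGTGA, which contains it, TGACNNNGC, the core of the antioxidant response element bound by NRF2, TGANTCA, the core bound by AP-1, and TGACGTCA, the palindrome bound by CREB and ATF factors. Windows were matched by symbol for 31 of the 39 members, 41 windows in all because some genes have several starts. CTSB, PSAP, ATP6V1H, LAMP2, UVRAG, HEXA, ASAH1 and ATP6V1A had no entry. Capitals mark the matched letters, read 5′ to 3′ on the strand of the gene. Bases in exons, as drawn in the count table or in GENCODE v29, are left out, except for 30 bases around a match that lies in one.
NEU1, upstream (chr6:31862933-31863071, minus strand): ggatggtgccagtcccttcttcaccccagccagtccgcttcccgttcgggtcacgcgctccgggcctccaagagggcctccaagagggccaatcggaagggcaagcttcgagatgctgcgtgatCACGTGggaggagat
MAP1LC3B, site in an exon (chr16:87392279-87392308, plus strand): cgcgagtcaccTGACCAGGCtgcgggctga
GABARAPL1, site in an exon (chr12:10212836-10212865, plus strand): ggctcgcggggTGACGTCAcagcccgacgc
TFE3, site in an exon (chrX:49043382-49043411, minus strand): ctgggcgggggaTGACTCAcagcccatccc
MITF, upstream (chr3:69936342-69936586, plus strand): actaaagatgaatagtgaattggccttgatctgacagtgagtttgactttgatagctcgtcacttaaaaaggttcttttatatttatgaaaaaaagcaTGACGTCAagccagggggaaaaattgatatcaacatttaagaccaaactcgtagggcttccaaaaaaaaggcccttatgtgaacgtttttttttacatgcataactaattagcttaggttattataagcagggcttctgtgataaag
GAA, upstream (chr17:80101331-80101555, plus strand): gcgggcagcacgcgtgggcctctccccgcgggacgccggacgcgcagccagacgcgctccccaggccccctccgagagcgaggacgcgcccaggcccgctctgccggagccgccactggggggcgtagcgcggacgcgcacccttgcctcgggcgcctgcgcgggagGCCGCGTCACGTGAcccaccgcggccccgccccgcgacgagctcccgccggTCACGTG
GAA, site at the exon edge (chr17:80101538-80101567, plus strand): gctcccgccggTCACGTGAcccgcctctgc
CTSD, upstream (chr11:1763993-1764177, minus strand): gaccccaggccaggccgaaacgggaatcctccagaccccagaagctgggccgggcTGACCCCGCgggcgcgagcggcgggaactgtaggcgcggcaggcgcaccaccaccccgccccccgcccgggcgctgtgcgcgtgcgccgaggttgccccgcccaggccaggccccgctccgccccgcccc
CTSD, site in an exon (chr11:1763957-1763986, minus strand): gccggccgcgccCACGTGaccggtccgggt
CTSZ, upstream (chr20:59007255-59007504, minus strand): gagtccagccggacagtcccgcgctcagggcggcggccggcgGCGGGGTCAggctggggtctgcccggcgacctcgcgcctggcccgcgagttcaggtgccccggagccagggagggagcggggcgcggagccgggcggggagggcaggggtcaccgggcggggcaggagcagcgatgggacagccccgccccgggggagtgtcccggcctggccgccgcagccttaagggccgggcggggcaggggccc
NEU1, MAP1LC3B and GABARAPL1, the genes shown first, rose in both lines. Each holds a different one of the searched motifs: CACGTG in NEU1, TGACNNNGC in MAP1LC3B and TGACGTCA in GABARAPL1. SQSTM1, the other gene that rose in both lines, had a window and no match. Of the 31 members with a window, 15 held a match, among them genes that rose, genes that fell and genes not called. Whether a match went with the rise was not tested. GAA, which fell in PEO1, holds 2 copies of TCACGTGA. The upstream copy overlaps a TGACNNNGC match on the opposite strand, so 1 run of capitals covers both, and the other ends at the edge of an exon, so its last base is shown only in the shorter stretch. The CTSZ match is likewise on the opposite strand. The window of MITF lies inside the gene as the count table lists it (chr3:69739435-69968337), since that gene has several starts.

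CACGTG was in 7 of the 41 member windows (17.1%) against 6.34% of all 35116 windows of that length. These were the windows of ATP6V0D1, CTSA, CTSD, GAA, LAMP1, MCOLN1 and NEU1. TCACGTGA was in 5 member windows (12.2%, against 0.854% of all), those of ATP6V0D1, CTSA, GAA, LAMP1 and MCOLN1. None of these 5 genes passed the test upward with prexasertib in either line, and GAA fell in PEO1. TGACNNNGC was in 10 member windows (24.4%, against 10.9%), TGANTCA in the window of TFE3 alone (2.44%, against 6.57%) and TGACGTCA in those of GABARAPL1 and MITF (4.88%, against 1.65%). A match describes the letters of a window and shows neither a bound site nor a cause. TCACGTGA is a motif of lysosomal gene promoters, and members and motifs were chosen with earlier results of these data known. The shares therefore describe the list and are not a test.

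Values are given as CPM, the counts of a library scaled to its total with a trimmed-mean factor, and levels of different genes are set side by side only per kilobase of exon (RPKM). A gene was called when the p-value of edgeR's quasi-likelihood test, adjusted by the Benjamini-Hochberg method over the 14498 tested genes, was under 0.05. Changes are log2 fold changes with their standard error (SE). Library totals were 9390790 to 18262805 counts, and log2 CPM values correlated at 0.959 to 0.989 within groups. The A libraries of all groups leaned to short genes (rank correlation of exon length with the deviation from the group mean, −0.41 to −0.35). Each lean is relative to the other libraries of its group, so the leans within a group are not independent. The B libraries leaned to long ones (0.13 to 0.44). The C libraries ran from −0.05 in PEO1 prexasertib to 0.32 in PEO1 DMSO, where C leaned to long genes more than B (0.13). The lean shows in short members such as GABARAP and long ones such as ATP6V1A below. Of 8 markers of ovarian carcinoma lines, 7 were at a mean of at least 1 CPM in all groups, while CDH1, the epithelial cadherin gene, was near absent in COV362 (0.346 CPM in DMSO). EPCAM was also far lower in COV362 (11.9 against 418 CPM in DMSO), while MUC16 was higher there (49.6 against 4.87 CPM). The summed level of the 8 markers was 2286 to 2829 CPM in COV362 DMSO and 2317 to 3515 with prexasertib. In PEO1 it was 6642 to 7756 CPM with DMSO and 3527 to 4108 with prexasertib, without overlap, with the keratin genes KRT7 (3040 and 1447 CPM) and KRT8 (1694 and 789 CPM) holding most of it. The part of this shift in the PEO1 results given here was not tested. The 5 immune markers summed to at most 5.21 CPM and the 5 stromal and endothelial ones to at most 10.0 CPM in any library, and LUM was at 0 throughout. NEU1 is listed on 8 sequences of the assembly, so its exon length of 16568 bases counts copies repeatedly, and it is left out of levels per length. In bulk RNA, a change in some of the cells and a smaller change in all of them cannot be told apart.

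With prexasertib, 4 members rose in COV362 and none fell, while in PEO1 12 rose and 7 fell. The 4 risers of COV362, SQSTM1, MAP1LC3B, GABARAPL1 and NEU1, also rose in PEO1, and 20 of the 39 members passed the test in neither line. In COV362 the called members were 10.3% of the list, against 0.828% of all tested genes (0.607% higher, 0.221% lower), and the median log2 change of the members was 0.09, against −0.01 for all tested genes. For the 0 lower members there, 2 had an unadjusted p under 0.05, beside 7 higher ones, and DESeq2 called 5 higher and 0 lower, limma-voom 4 and 0. These COV362 counts are from fits without a letter term, and with the letter as a replicate block edgeR called 6 higher and 2 lower. In PEO1 the called members were 48.7% of the list, against 29.3% of all tested genes (14.7% higher, 14.6% lower), and the medians were 0.02 and 0.01. By direction, the 12 that rose in PEO1 were 30.8% of the members and the 7 that fell 17.9%. Groups did not overlap for 15 members above and 9 below DMSO in PEO1, against 25.0% of all tested genes on either side. In COV362 the same held for 6 members above and 2 below, against 6.82% and 7.63% of all tested genes. The members were chosen with earlier results of these data known, so these shares describe the list and are not a test.

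**Figure D1:**
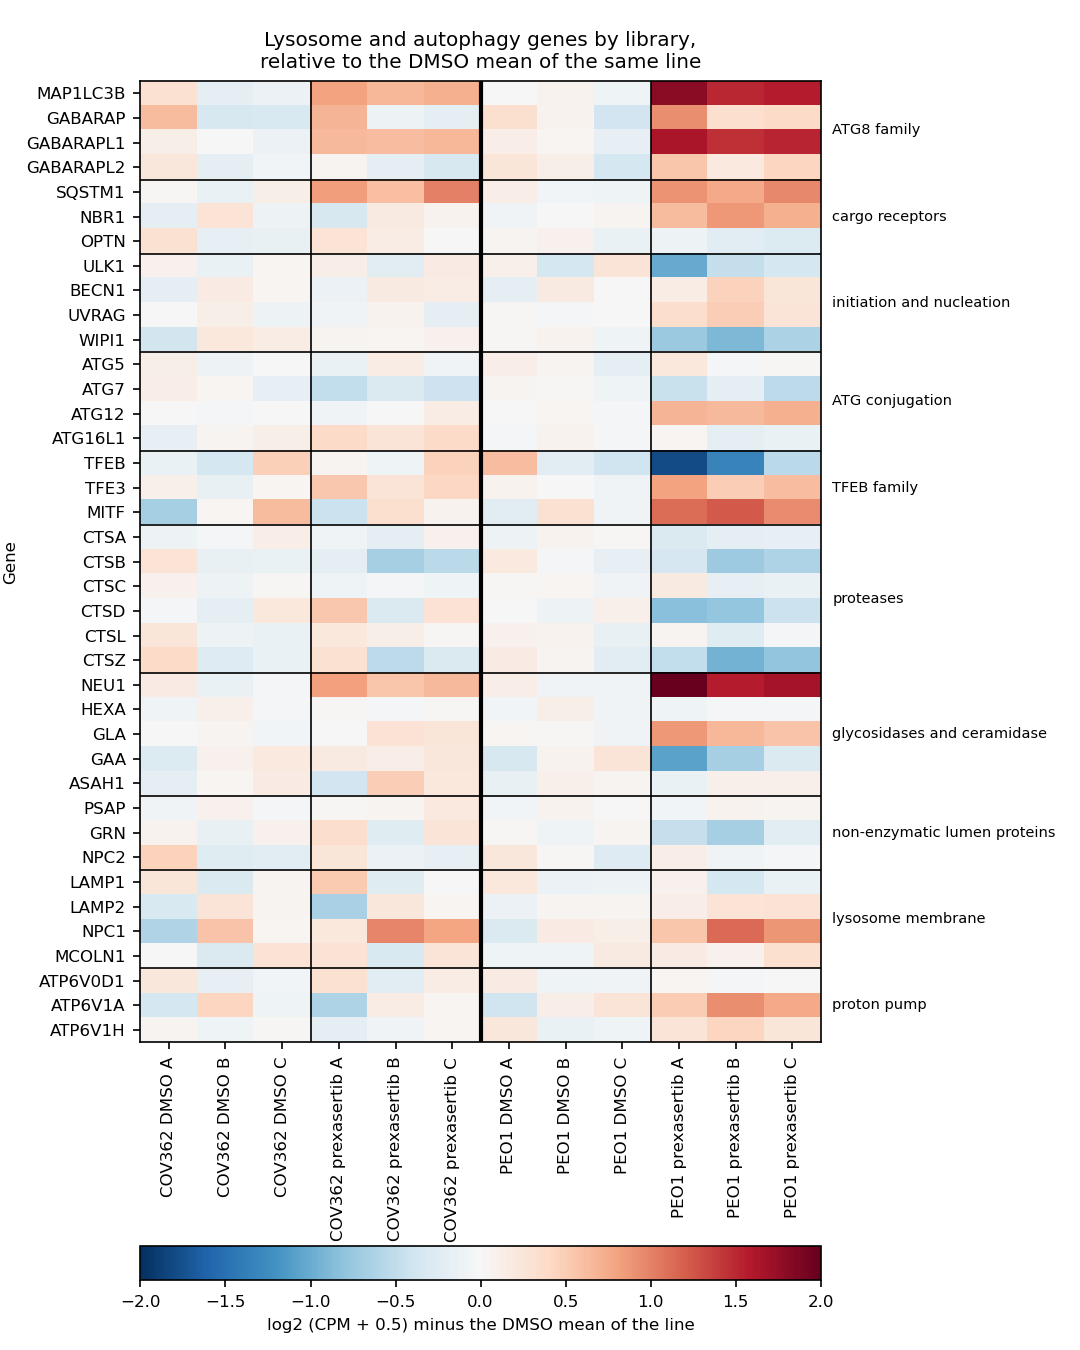
Colour gives log2 (CPM + 0.5) of each gene in each library minus the mean of the DMSO libraries of the same line, with genes in rows grouped by role and the 12 libraries in columns. MAP1LC3B, GABARAPL1, SQSTM1 and NEU1 are red in all 6 prexasertib libraries, and TFEB, WIPI1, CTSD, CTSZ and CTSB are blue in the 3 PEO1 prexasertib libraries.

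The COV362 calls of the fit without a letter term were sensitive to which libraries it held, in part also those of PEO1. SQSTM1 lost its call without COV362 DMSO B (edgeR adjusted p = 0.0599) and without COV362 prexasertib C (0.0661). GABARAPL1 lost it in 7 of the 12 fits that left out 1 library (COV362 DMSO B and C, COV362 prexasertib B and C, PEO1 DMSO B, PEO1 prexasertib B and C), at adjusted p-values of up to 0.139. MAP1LC3B and NEU1 lost it in 10 of those 12, all but COV362 DMSO A and PEO1 prexasertib A, at up to 0.169 and 0.195. Over these fits the log2 changes stayed at 0.72 to 0.92 for SQSTM1, 0.59 to 0.70 for GABARAPL1, 0.63 to 0.89 for MAP1LC3B and 0.60 to 0.76 for NEU1. A fit of the 6 COV362 libraries alone called 0 members, with adjusted p-values of 0.191 for SQSTM1 and 0.287 for the other 3. COV362 libraries of the same letter deviated together, clearly for A and B and less so for C. With the letter as a replicate block edgeR called 8 members. The same 4 were SQSTM1 (0.82, adjusted p = 3.60e-09), MAP1LC3B (0.74, 1.24e-06), NEU1 (0.68, 3.83e-06) and GABARAPL1 (0.65, 4.47e-05). TFE3 (0.40, 0.000779) and NPC1 (0.65, 0.000182) were also called upward, and ATG7 (−0.39, 0.0142) and CTSB (−0.46, 8.03e-05) downward.

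**Figure D2:**
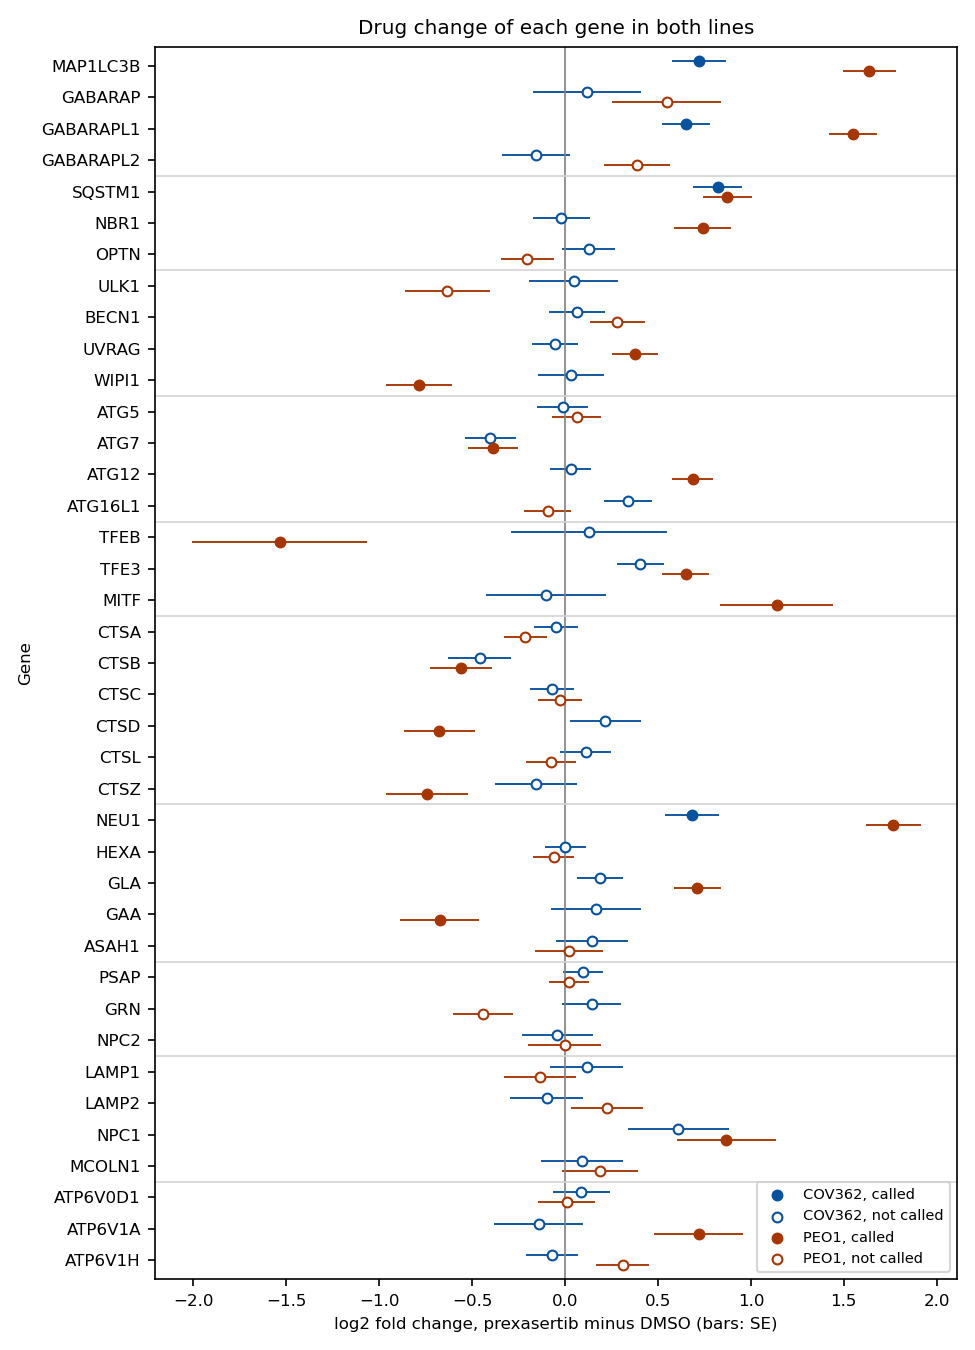
Points are log2 fold changes of prexasertib minus DMSO for each gene in COV362 (blue) and PEO1 (brown), bars are their SE, and filled points passed the test. In COV362 the 4 filled points lie between 0.65 and 0.82, and in PEO1 the 19 filled points run from −1.54 for TFEB to 1.76 for NEU1.

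The ATG8 family supplies the lipid-linked tags of autophagic membranes, and 2 of the 4 family genes among the listed members rose in both lines. MAP1LC3B, which encodes LC3B (chr16:87392195-87404774), was at 56.7, 40.2 and 41.9 CPM in COV362 DMSO A, B and C and at 80.3, 72.8 and 74.9 with prexasertib. In PEO1 it was at 84.5, 88.4 and 79.0 CPM with DMSO and at 294, 240.1 and 249.8 with prexasertib. Every treated library was above every DMSO library of its line, and the PEO1 treated libraries stood above all others. The log2 change was 0.72 ± 0.14 in COV362 (edgeR adjusted p = 0.0329) and 1.64 ± 0.14 in PEO1 (adjusted p = 6.31e-06), 3.11-fold. MAP1LC3B2, a near-identical copy, held 0 to 22 counts per library against 469 to 5010 for MAP1LC3B. It too was called higher in PEO1 (2.37 ± 0.73, 0.0261), and reads of the pair cannot be told apart where their sequences match.

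GABARAPL1 (chr12:10212890-10223125), of the GABARAP subfamily, was at 30.9, 28.8 and 26.1 CPM in COV362 DMSO and at 45.1, 44.0 and 45.3 with prexasertib. In PEO1 it went from 36.7, 34.1 and 29.6 to 105, 92.3 and 97.3 CPM. Its groups did not overlap in either line, and its treated COV362 libraries lay within 2 CPM of each other. The log2 changes were 0.65 ± 0.13 in COV362 (edgeR adjusted p = 0.0298) and 1.55 ± 0.13 in PEO1 (3.81e-06). The copy GABARAPL3 held 0 to 4 counts per library.

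GABARAP (chr17:7240419-7242434) and GABARAPL2 (chr16:75566351-75577881) passed the test in neither line. GABARAP was at 434, 223 and 227 CPM in COV362 DMSO and 449, 262 and 248 with prexasertib, the A library standing far above the other two in both groups. In PEO1 it was at 186, 156 and 114 and 283, 189 and 195 CPM, a log2 change of 0.55 ± 0.29 (edgeR adjusted p = 0.178). GABARAP has short exons, and the lean of the A libraries to short genes moved with its level. Without all A libraries its PEO1 change was 0.50 (adjusted p = 0.00954), and with an exon length correction 0.52 (0.0227), so the call was gained under both. GABARAPL2 changed by −0.16 ± 0.18 in COV362 and 0.39 ± 0.18 in PEO1 (adjusted p = 0.119). Its PEO1 change was called with the exon length correction and with the replicate block (0.40, edgeR adjusted p = 0.00396).

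Per length, GABARAP held most of the transcripts of these 4 listed genes in all groups. Other genes of the family, such as MAP1LC3B2, were left out of these shares. Its share of the summed RPKM of the 4 genes was 80.7 ± 3.57% (SD, n = 3) in COV362 DMSO and 78.7 ± 4.17% with prexasertib, and 63.1 ± 2.78% in PEO1 DMSO and 52.3 ± 3.37% with prexasertib. The share of MAP1LC3B in the PEO1 libraries was 11.7%, 13.9% and 16.3% with DMSO and 22.7%, 25.3% and 25.0% with prexasertib. In COV362 it was 5.17 ± 0.731% and 7.70 ± 1.66%, and there the A, B and C libraries with prexasertib (5.82%, 8.33% and 8.95%) were above those with DMSO (4.33%, 5.54% and 5.65%) by a narrow margin at the closest pair. Thus GABARAP took a smaller and MAP1LC3B a larger part of the 4 listed genes with the drug in PEO1, without overlap between the groups. The summed RPKM of the 4 genes was 316, 278 and 212 in PEO1 DMSO and 565, 415 and 438 with prexasertib.

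**Figure D3:**
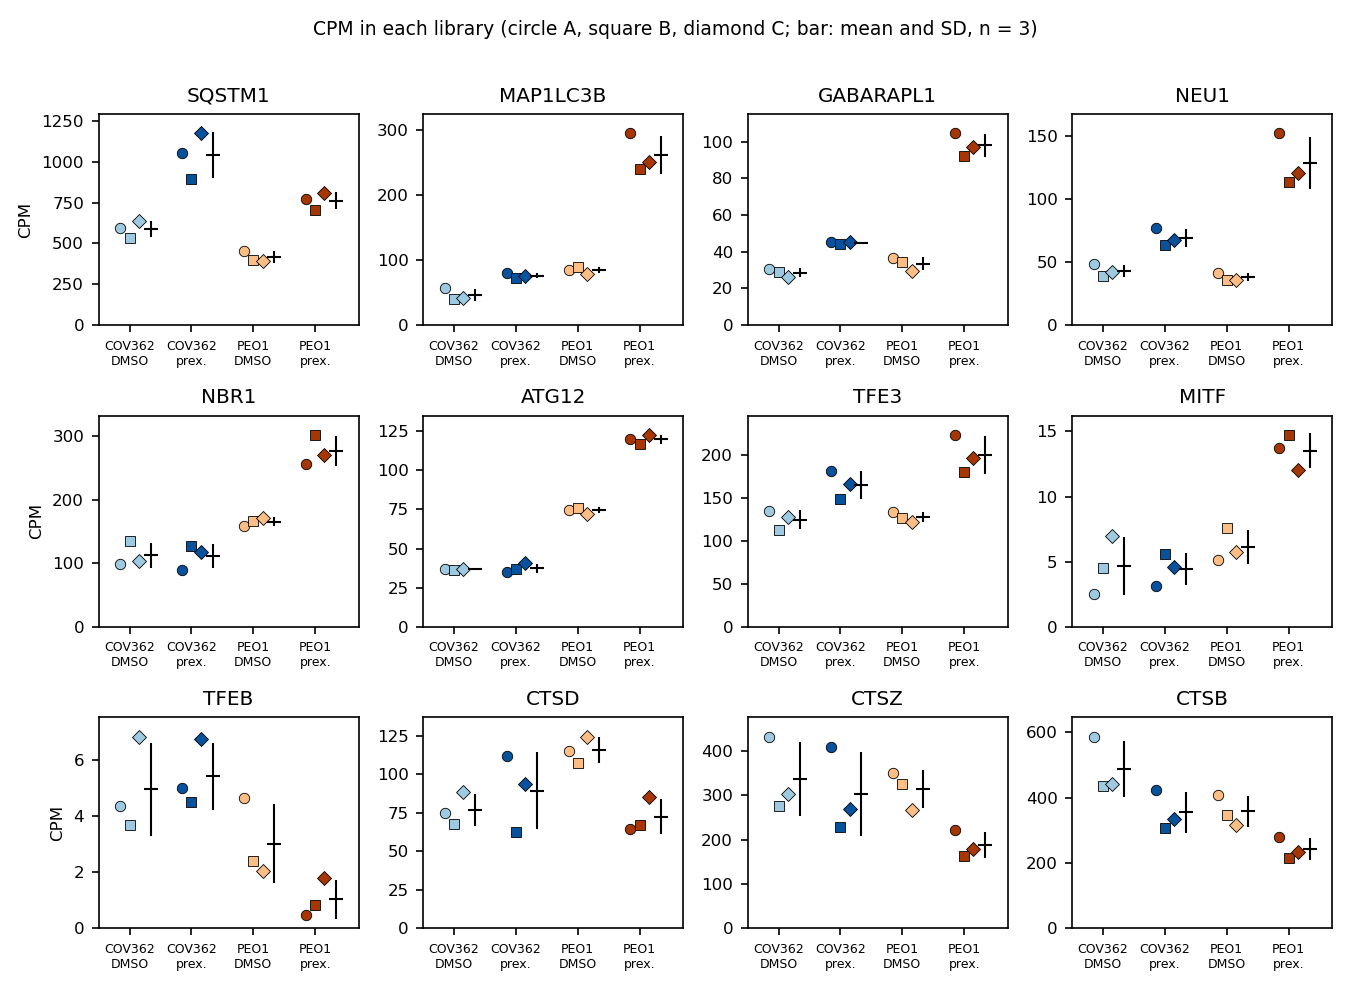
Points are CPM in each library for 12 genes (circle A, square B, diamond C), with the mean and SD of each group beside them and each axis starting at 0. SQSTM1 rises in both lines by a like log2 fold change, and MAP1LC3B, GABARAPL1 and NEU1 rise further in PEO1. TFEB and the cathepsin genes CTSD, CTSZ and CTSB are lower in the treated PEO1 libraries.

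Among the cargo receptors, SQSTM1 rose in both lines and NBR1 in PEO1. SQSTM1 (chr5:179806388-179838077), which encodes p62, the receptor for ubiquitin-tagged cargo and an NRF2 target, was at 594, 534 and 635 CPM in COV362 DMSO and 1051, 891 and 1173 with prexasertib. In PEO1 it was at 457, 399 and 393 and 773, 705 and 806 CPM. The groups stood apart in both lines, and every COV362 library was above every PEO1 library of the same condition. The log2 changes were 0.82 ± 0.13 in COV362 (edgeR adjusted p = 0.00973) and 0.87 ± 0.13 in PEO1 (0.000366). Their difference was 0.05 ± 0.19, with a 95% interval of −0.35 to 0.45. SQSTM1 shares 620 exonic bases with C5orf45 and 105 with MGAT4B on the opposite strand, and the unstranded reads there cannot be assigned.

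NBR1 (chr17:43170471-43211689), a receptor related to p62, was at 158, 166 and 171 CPM in PEO1 DMSO and 256, 302 and 271 with prexasertib, with no overlap (log2 0.74 ± 0.15, edgeR adjusted p = 0.00273). In COV362 its DMSO and prexasertib values, 98.8, 135 and 104 and 89.5, 126 and 118 CPM, lay in the same range (log2 −0.02 ± 0.15). The difference between the lines' changes was 0.76 ± 0.21 and narrowly missed the threshold (adjusted p = 0.0515). It passed in 9 of 23 alternatives: in DESeq2 (0.0165), in limma-voom (0.0488), with a filter at 1 CPM (0.0494), with the exon length correction (0.0156), with the replicate block (1.12e-05), with both of these (9.98e-05), without all A libraries (0.0311), and without COV362 DMSO A (0.0335) or COV362 prexasertib B (0.0273). OPTN (chr10:13100082-13138276), which encodes the receptor optineurin, changed by 0.13 ± 0.14 in COV362 and −0.20 ± 0.14 in PEO1, and neither passed the test (adjusted p = 0.794 and 0.303).

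Of the 4 genes of initiation and nucleation, WIPI1 fell and UVRAG rose in PEO1, and none passed the test in COV362, where the 4 changes lay between −0.06 and 0.07. WIPI1 (chr17:68421281-68457512), which encodes a phosphoinositide reader on early autophagic membranes, was at 16.4, 17.0 and 15.3 CPM in PEO1 DMSO and 9.51, 8.46 and 10.3 with prexasertib. The treated libraries were all lower, by −0.79 ± 0.18 on the log2 scale (edgeR adjusted p = 0.00497). UVRAG (chr11:75815167-76144238), a partner of BECN1, was at 35.5, 33.9 and 35.1 and 44.6, 49.1 and 41.9 CPM (log2 0.37 ± 0.12, adjusted p = 0.0360). This call was lost without any of the 6 PEO1 libraries and without COV362 DMSO C, at adjusted p-values of up to 0.226 and log2 changes of 0.26 to 0.38. It was also lost with size factors of the median-ratio kind, with an exon length correction, without the A libraries and without a filter on low counts.

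ULK1 (chr12:131894734-131923162), the gene of the initiating kinase, was at 14.7, 10.6 and 16.4 CPM in PEO1 DMSO and 6.58, 9.73 and 10.6 with prexasertib, the lowest DMSO library lying barely above the highest treated one. Its log2 change of −0.63 ± 0.23 just missed the threshold (edgeR adjusted p = 0.0526), while DESeq2 (0.0193) and limma-voom (0.0394) called it. It was called without COV362 prexasertib A or B, PEO1 DMSO B or PEO1 prexasertib C, at 0.0250 to 0.0449. ULK1 was also called with the replicate block (edgeR adjusted p = 0.00762), the exon length correction, and both of these. The same held with median-ratio or upper-quartile factors, without a filter on low counts, and in a fit of the PEO1 libraries alone. BECN1 (chr17:42810132-42824292), the core of the lipid kinase complex, changed by 0.07 ± 0.15 in COV362 and 0.28 ± 0.15 in PEO1 without passing the test (adjusted p = 0.926 and 0.173), and shares 797 exonic bases with CNTD1 on the opposite strand.

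In the conjugation system, ATG12 rose and ATG7 fell in PEO1. ATG12 (chr5:115828197-115841851), the gene of the ubiquitin-like protein joined to ATG5, was at 74.7, 76.2 and 72.4 CPM in PEO1 DMSO and 120.1, 117 and 123 with prexasertib, and at 37.0, 36.0 and 37.0 and 34.9, 36.8 and 40.6 CPM in COV362. PEO1 separated cleanly (log2 0.69 ± 0.11, edgeR adjusted p = 0.000479), and COV362 changed by 0.03 ± 0.11. ATG7 (chr3:11272324-11557665), the gene of the activating enzyme of both reactions, was at 60.7, 59.7 and 55.4 and 42.9, 50.8 and 40.6 CPM in PEO1 and at 45.0, 42.1 and 36.4 and 29.2, 33.4 and 30.8 CPM in COV362. It was lower in all treated libraries of both lines. The log2 changes were −0.40 ± 0.14 in COV362 (adjusted p = 0.212, and 0.0142 with the replicate block) and −0.39 ± 0.13 in PEO1 (0.0423). The PEO1 call was lost without PEO1 DMSO A or B, PEO1 prexasertib A or C, or COV362 prexasertib C, at adjusted p-values of up to 0.112. It was also lost without all A libraries (0.0976) and without a filter on low counts. ATG7 overlaps VGLL4 on the opposite strand by 1599 exonic bases.

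ATG5 (chr6:106184477-106325820), the acceptor of ATG12, changed by −0.01 ± 0.14 in COV362 and 0.06 ± 0.13 in PEO1. ATG16L1 (chr2:233251571-233295674), which places the conjugate on the membrane, was at 22.6, 26.4 and 27.8 CPM in COV362 DMSO and 33.4, 30.5 and 33.3 with prexasertib. Those groups did not overlap, yet the log2 change of 0.34 ± 0.13 was not called (edgeR adjusted p = 0.284, and 0.0505 with the replicate block), and in PEO1 it was −0.09 ± 0.13.

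The 3 genes of the TFEB family all passed the test in PEO1, 2 upward and 1 downward, and none did in COV362. TFE3 (chrX:49028726-49043517), by far the most expressed of them per length, was at 134, 127 and 122 CPM in PEO1 DMSO and 224, 181 and 197 with prexasertib (log2 0.65 ± 0.13, edgeR adjusted p = 0.00183). In COV362 it was at 135, 112 and 129 and 181, 149 and 167 CPM, again without overlap. The change was 0.41 ± 0.13 (edgeR adjusted p = 0.167, and 0.000779 with the replicate block, DESeq2 0.0499). The difference between the lines was 0.24 ± 0.18 (0.413). In DMSO, TFE3 was at 36.3 RPKM in COV362 and 37.1 in PEO1, against 1.81 and 1.10 for TFEB and 0.766 and 1.0 for MITF.

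MITF (chr3:69739435-69968337), known best from melanocytes, was at 5.09, 7.55 and 5.72 CPM in PEO1 DMSO and 13.7, 14.7 and 12.1 with prexasertib, and at 2.54, 4.49 and 6.97 and 3.11, 5.55 and 4.59 CPM in COV362. The PEO1 groups did not overlap (log2 1.14 ± 0.30, edgeR adjusted p = 0.0127), and COV362 changed by −0.10 ± 0.32 with wide scatter. Without PEO1 DMSO A the PEO1 change was 0.97 (adjusted p = 0.0674), without PEO1 DMSO C 1.04 (0.0600) and without PEO1 prexasertib B 1.02 (0.0564).

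TFEB (chr6:41683978-41736259), the family's best studied regulator of lysosomal genes, was scarce, at 4.63, 2.39 and 2.03 CPM in PEO1 DMSO and 0.470, 0.824 and 1.81 with prexasertib. The treated values rested on 8, 15 and 30 counts. All were below the DMSO libraries, with a log2 change of −1.54 ± 0.47 (edgeR adjusted p = 0.0252), but the lowest DMSO and highest treated values were close. The call was lost without PEO1 DMSO A (−1.15, adjusted p = 0.107), PEO1 prexasertib A (−1.24, 0.0795) or PEO1 prexasertib B (−1.44, 0.0788), and without all A libraries the change was −0.76 (0.219). In COV362 it was at 4.36, 3.67 and 6.84 CPM with DMSO and 5.0, 4.50 and 6.77 with prexasertib, the same range (log2 0.13 ± 0.42).

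Of the 6 cathepsin genes, which encode lysosomal proteases, CTSD, CTSZ and CTSB fell in PEO1 and none rose. None of the 6 passed the test in COV362 in the fit without a letter term. Their log2 changes in PEO1 ran from −0.74 to −0.03, with a median of −0.39, against 0.01 for all tested genes. CTSD (chr11:1752752-1763992), an aspartic protease, was at 116, 107 and 125 CPM in PEO1 DMSO and 64.7, 67.3 and 85.6 with prexasertib. The groups did not overlap (log2 −0.68 ± 0.19, edgeR adjusted p = 0.0168). In COV362 the values were 74.8, 67.7 and 88.4 and 112, 62.7 and 93.9 CPM, overlapping, with a change of 0.22 ± 0.19, and the difference between the lines of −0.89 ± 0.27 missed the threshold (adjusted p = 0.0645). It passed in 7 of 23 alternatives: in DESeq2 (0.0163), without a filter on low counts (0.0302), with the exon length correction (0.0353), with the replicate block (2.42e-05), with both of these (8.82e-05), and without COV362 prexasertib B (0.0107) or PEO1 prexasertib C (0.0497).

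CTSZ (chr20:58995187-59007254), a carboxypeptidase, was at 351, 324 and 267 CPM in PEO1 DMSO and 221, 162 and 179.6 with prexasertib, without overlap (log2 −0.74 ± 0.22, edgeR adjusted p = 0.0217). CTSB (chr8:11842525-11868137), a cysteine protease, was at 409, 348 and 317 and 281, 215 and 232 CPM (log2 −0.56 ± 0.17, adjusted p = 0.0228). Both calls were lost without PEO1 DMSO A (adjusted p = 0.0526 for CTSZ and 0.0626 for CTSB) and without PEO1 prexasertib B (0.0628 and 0.0645), and that of CTSB also without PEO1 prexasertib C (0.0514). In COV362, CTSB was at 587, 436 and 441 and 425, 306 and 334 CPM, every treated library below every DMSO one. The change of −0.46 ± 0.17 was not called (edgeR adjusted p = 0.255), but it was with the replicate block (8.03e-05). CTSZ changed by −0.16 ± 0.22 in COV362.

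CTSA (chr20:45890952-45898819), whose product protects the sialidase of NEU1 in a complex, changed by −0.21 ± 0.12 in PEO1, CTSC (chr11:88293592-88337773), a dipeptidyl peptidase, by −0.03 ± 0.12, and CTSL (chr9:87726059-87731469), a cysteine endopeptidase, by −0.07 ± 0.14 (edgeR adjusted p = 0.188, 0.885 and 0.722). In COV362 these 3 changed by −0.05, −0.07 and 0.11. The summed RPKM of the 6 cathepsin genes was 539, 509.9 and 459 in PEO1 DMSO and 389, 323 and 356 with prexasertib. In COV362 the sums overlapped, at 479 to 646 and 422 to 601.

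Of the 5 genes of glycosidases and ceramidase, NEU1 rose in both lines, and in PEO1 GLA rose and GAA fell. NEU1, the gene of the lysosomal sialidase, was at 48.2, 39.1 and 42.2 CPM in COV362 DMSO and 76.7, 63.2 and 67.5 with prexasertib. In PEO1 it was at 41.6, 36.2 and 35.9 and 152, 114 and 121 CPM, the treated libraries standing far above all others. The log2 changes were 0.68 ± 0.15 in COV362 (edgeR adjusted p = 0.0462) and 1.76 ± 0.15 in PEO1 (4.28e-06), 3.40-fold, the highest among the 39 members in PEO1. The COV362 call was lost with size factors of the median-ratio kind (0.0510) and with an exon length correction (0.0831), which used its repeated length.

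GLA (chrX:101397791-101408013), the gene of alpha-galactosidase A, was at 45.2, 45.1 and 42.2 CPM in PEO1 DMSO and 80.5, 70.5 and 66.0 with prexasertib, without overlap (log2 0.71 ± 0.13, edgeR adjusted p = 0.00101). In COV362 it changed by 0.19 ± 0.13 (adjusted p = 0.598). GAA (chr17:80101556-80119880), the gene of the glycogen-degrading alpha-glucosidase, was at 28.5, 37.6 and 42.7 CPM in PEO1 DMSO and 16.7, 22.5 and 29.0 with prexasertib. Each lettered library was lower with the drug, but the groups overlapped, since DMSO A was below prexasertib C. Its log2 change was −0.67 ± 0.21 (adjusted p = 0.0283), and the call was lost without PEO1 DMSO B or C or PEO1 prexasertib A or B, at adjusted p-values of up to 0.0895. HEXA (chr15:72343437-72376179), the gene of a hexosaminidase subunit, changed by 0.00 and −0.06, and ASAH1 (chr8:18056416-18084998), the gene of acid ceramidase, by 0.15 and 0.02 in COV362 and PEO1, with no call.

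None of the 3 lumen protein genes without enzyme activity of their own passed the test in either line. GRN (chr17:44345086-44353106), the progranulin gene, was at 197, 182 and 202 CPM in PEO1 DMSO and 141, 122 and 165 with prexasertib. The treated libraries were all lower, and the log2 change of −0.44 ± 0.16 just missed the threshold (edgeR adjusted p = 0.0513, against 0.0197 in DESeq2 and 0.0388 in limma-voom). It was called without COV362 DMSO A or B, COV362 prexasertib A or B, or PEO1 prexasertib C, at 0.0193 to 0.0490. GRN was also called with the replicate block (edgeR adjusted p = 5.37e-05), the exon length correction, and both of these. The same held with median-ratio or upper-quartile factors, without a filter on low counts, and in a fit of the PEO1 libraries alone. PSAP (chr10:71816298-71851325), the gene of the sphingolipid activators, changed by 0.09 in COV362 and 0.02 in PEO1. NPC2 (chr14:74479940-74493381), the gene of a soluble cholesterol carrier, changed by −0.04 and 0.00, with 95% intervals of −0.45 to 0.37 and −0.42 to 0.41.

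Of the 7 membrane protein genes, NPC1 and ATP6V1A rose in PEO1 and none passed the test in COV362. NPC1 (chr18:23531499-23586617), the gene of the cholesterol exporter, was at 38.2, 52.3 and 50.7 CPM in PEO1 DMSO and 68.6, 103 and 86.1 with prexasertib, and at 12.8, 29.6 and 20.4 and 23.1, 39.4 and 34.5 CPM in COV362. The A libraries were the lowest of every group, and each treated library was above the DMSO library of its letter. The log2 changes were 0.87 ± 0.27 in PEO1 (edgeR adjusted p = 0.0248) and 0.61 ± 0.27 in COV362 (0.365, and 0.000182 with the replicate block). The PEO1 call was lost without any PEO1 DMSO library or PEO1 prexasertib B or C, at adjusted p-values of up to 0.129 and changes of 0.67 to 0.90. NPC1 shares 183 exonic bases with C18orf8 on the opposite strand.

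ATP6V1A (chr3:113747019-113812058), the gene of the ATP-splitting subunit of the proton pump, was at 43.3, 62.7 and 68.3 CPM in PEO1 DMSO and 81.3, 109 and 96.7 with prexasertib. The groups did not overlap (log2 0.72 ± 0.24, edgeR adjusted p = 0.0360), and the A library was the lowest in both. The call was lost without any of the 6 PEO1 libraries and without COV362 DMSO C, at adjusted p-values of up to 0.190 and changes of 0.49 to 0.80. ATP6V1H (chr8:53715543-53843311), the regulatory subunit gene, changed by 0.31 ± 0.14 in PEO1 (adjusted p = 0.117), and ATP6V0D1 (chr16:67438014-67481186), a subunit of the membrane sector, by 0.01 ± 0.15. LAMP1 (chr13:113297154-113323426), LAMP2 (chrX:120426148-120469349) and the calcium channel gene MCOLN1 (chr19:7522610-7534009) changed by −0.13, 0.23 and 0.19 in PEO1 and by 0.12, −0.10 and 0.09 in COV362, with no call. Summed RPKM of the 4 lysosome membrane genes was 212 to 250.5 in PEO1 DMSO and 199 to 243 with prexasertib.

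The drug change differed between the lines for 4 members, NEU1, MAP1LC3B, GABARAPL1 and ATG12, all of them higher in PEO1. The test was on the difference of the 2 log2 changes, and it called 6.1% of all tested genes (3.14% higher and 2.97% lower in PEO1). That fit called no member lower, while 6 lower and 9 higher had an unadjusted p under 0.05, DESeq2 called 6 higher and 3 lower, and limma-voom 5 and 0. The difference was 1.08 ± 0.20 for NEU1 (edgeR adjusted p = 0.0105), 0.92 ± 0.20 for MAP1LC3B (0.0198), 0.90 ± 0.18 for GABARAPL1 (0.0138) and 0.66 ± 0.15 for ATG12 (0.0268). NEU1, MAP1LC3B and GABARAPL1 thus rose in both lines and further in PEO1, while ATG12 passed the test in PEO1 and was at 0.03 in COV362. The call for NEU1 held without each library in turn. It was lost with the exon length correction (0.72, adjusted p = 0.140), which used the repeated length of NEU1. That for GABARAPL1 was lost without PEO1 DMSO C (0.0526) or PEO1 prexasertib A (0.0506). That for MAP1LC3B was lost without any PEO1 DMSO library, PEO1 prexasertib A or COV362 prexasertib C, at up to 0.0691. That for ATG12 was lost without any of the 6 PEO1 libraries and without COV362 DMSO B or C, at up to 0.0955. The ATG12 call was also lost without all A libraries and without a filter on low counts. In the fit without a block, for the other 35 members, including MITF (1.24, 0.105) and TFEB (−1.66, 0.124), the difference between the lines was not called. The replicate block changed this: with it 20 members were called, 12 higher and 8 lower in PEO1. The 12 were the 4 above with NBR1, ATP6V1A, GLA, MITF (0.00448), GABARAP, GABARAPL2, UVRAG and LAMP2, and the 8 were CTSD, CTSZ (0.000301), GRN (0.000587), GAA (0.00440), WIPI1, TFEB (0.0138), OPTN and ATG16L1. Deviations of same-letter libraries correlated positively in both lines, at 0.410, 0.423 and 0.133 in COV362 and 0.302, 0.171 and 0.0813 in PEO1. Only in COV362 were all of them over 0.1, the mark used for pairing, which did not split the lines cleanly. Without a block, the difference for MITF passed without COV362 DMSO A (0.0338) and that for GRN without COV362 prexasertib B (0.0279).

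Without drug, 26 of the 39 members differed between the lines, 17 higher and 9 lower in PEO1, against 57.7% of all tested genes (29.1% higher, 28.6% lower). The median log2 difference was 0.20 for the members and −0.01 for all tested genes. All 4 lysosome membrane genes were higher in PEO1, LAMP1 at 481 ± 62.5 against 126 ± 22.8 CPM (SD, n = 3), MCOLN1 at 19.9 ± 2.18 against 6.16 ± 1.35, NPC1 at 47.1 ± 7.72 against 21.0 ± 8.42 and LAMP2 at 162 ± 11.3 against 90.5 ± 17.4. Their log2 differences were 1.94, 1.69, 1.15 and 0.84 (edgeR adjusted p = 2.16e-06, 1.50e-05, 0.00245 and 0.00227). All 4 conjugation genes were higher in PEO1 as well, ATG5 by 1.13, ATG12 by 1.02, ATG16L1 by 0.98 and ATG7 by 0.51 on the log2 scale. The 3 TFEB family genes passed no test between the lines (−0.73 for TFEB, 0.03 for TFE3, 0.36 for MITF), but TFEB did without PEO1 DMSO A (−1.17, edgeR adjusted p = 0.0478).

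GAA and ASAH1 stood furthest apart, and both were higher in PEO1. GAA was at 3.87, 5.09 and 5.54 CPM in COV362 DMSO against 28.5 to 42.7 in PEO1 (log2 2.89 ± 0.24, edgeR adjusted p = 1.98e-07). ASAH1 was at 14.2, 16.7 and 18.2 CPM against 93.3 to 111 (2.66 ± 0.20, 8.38e-08). ULK1 (1.11), GRN (1.10), MAP1LC3B (0.87), BECN1 (0.59), CTSD (0.59), NBR1 (0.55) and CTSA (0.53) were also higher in PEO1.

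Among the 9 lower in PEO1, ATP6V1H was at 20.2, 15.6 and 16.1 CPM against 45.5 to 49.8 in COV362 (log2 −1.47 ± 0.14, edgeR adjusted p = 1.13e-06). NPC2 was at 99.3, 85.9 and 71.0 against 178 to 289 CPM (−1.33 ± 0.20, 5.30e-05) and CTSC at 142, 144 and 133 against 293 to 336 CPM (−1.18 ± 0.12, 1.64e-06). The lines did not overlap for any of these 3. The others were GABARAP (−0.95), UVRAG (−0.69), HEXA (−0.53), SQSTM1 (−0.50), CTSB (−0.45) and PSAP (−0.33). Calls lost by leaving out 1 library were those of GABARAP without COV362 DMSO A (−0.57, edgeR adjusted p = 0.0788) or PEO1 DMSO C (0.0574), of CTSB without COV362 DMSO A (−0.29, 0.148), PEO1 DMSO B (0.0840) or PEO1 DMSO C (0.118), of PSAP without COV362 DMSO B (0.0675) or PEO1 DMSO A (0.0654), and, among the higher genes, of CTSD without COV362 DMSO B (0.0609) or PEO1 DMSO C (0.0524).

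**Figure D4:**
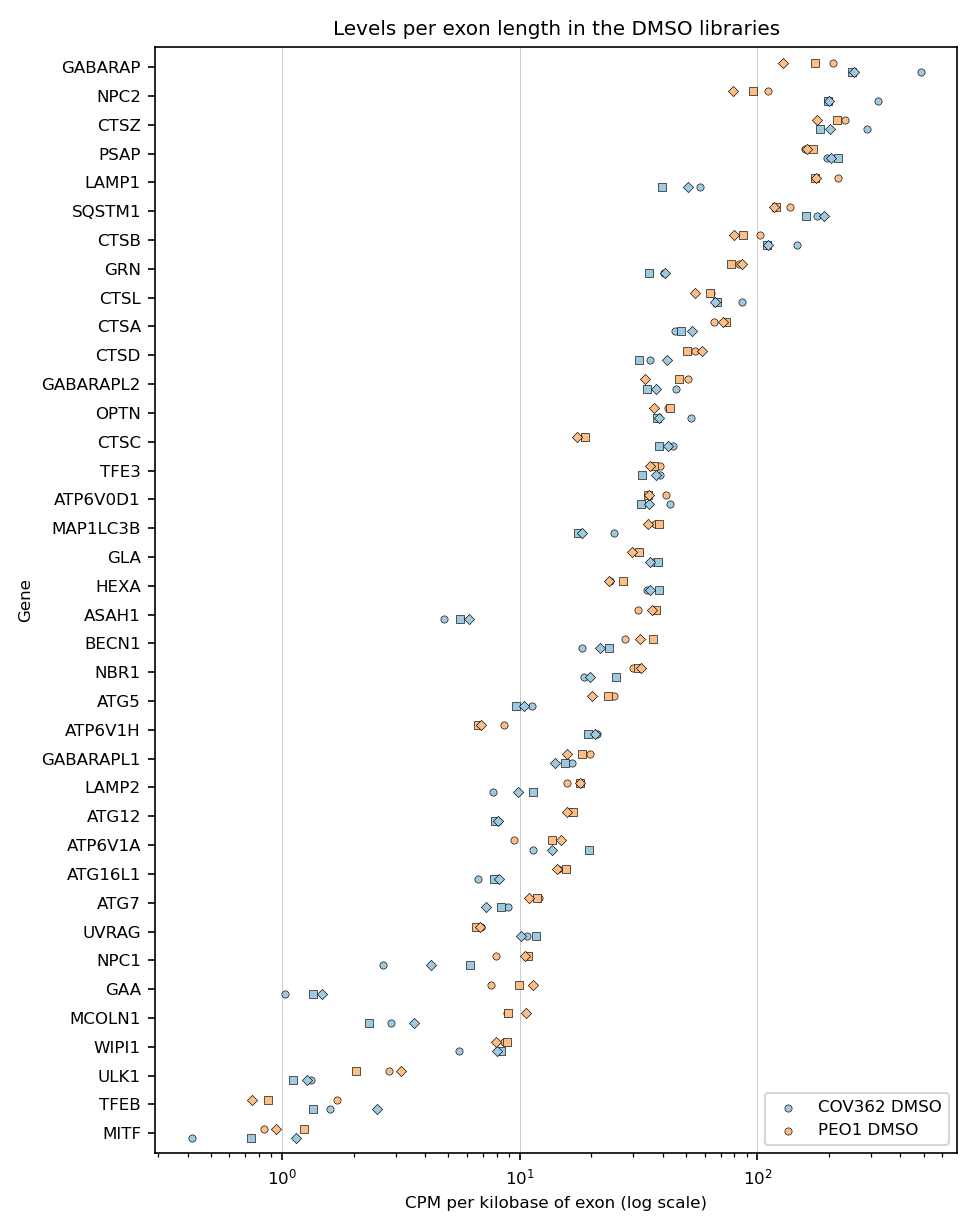
Points are CPM per kilobase of exon on a log axis in the 3 DMSO libraries of COV362 (blue) and of PEO1 (orange), for 38 genes ordered by the higher of the 2 group means. GABARAP, NPC2, CTSZ, PSAP and SQSTM1 lead in COV362, and CTSZ, LAMP1, GABARAP, PSAP and SQSTM1 in PEO1.

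Per length, the order of the members was led by the same genes with some exchange between the lines. In COV362 DMSO, GABARAP (330.1 RPKM) was followed by NPC2 (240.2), CTSZ (225), PSAP (206) and SQSTM1 (176). In PEO1 DMSO, CTSZ (209) was followed by LAMP1 (189), GABARAP (170.4), PSAP (164) and SQSTM1 (125). Library ranges of neighbours in these orders overlapped in part, as the plot of levels per length shows, so close ranks are not set apart. ULK1, TFEB and MITF were the lowest of the 38 in PEO1, and with GAA in COV362. With prexasertib, SQSTM1 stood at 311 RPKM in COV362 and 228 in PEO1, second to GABARAP in both lines, and MAP1LC3B in PEO1 at 114.

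Beside the 39 members, 137 further genes of the same pathway were taken from 6 lists, 136 of them in the table and 131 tested. In COV362 edgeR called 0 of them, 9 higher and 4 lower ones had an unadjusted p under 0.05, DESeq2 called 2 higher and 1 lower, limma-voom 1 higher and none lower, and the fit with the replicate block 13 higher and 6 lower. In PEO1, 25 rose and 13 fell, 29.0% of the 131, close to the 29.3% of all tested genes, and the median was 0.06. The difference between the lines was called for 7 higher and 2 lower in PEO1.

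In PEO1 the 30 further autophagy genes tested held 5 that rose and 2 that fell. Among those averaging 1 CPM or more in PEO1, the limit for naming genes of these lists, ATG14, a subunit gene of the BECN1 complex, and ATG2B, a lipid transfer protein gene, changed most. ATG14 was at 14.2, 15.6 and 17.9 CPM in PEO1 DMSO and 31.6, 38.7 and 37.7 with prexasertib (log2 1.18 ± 0.20, edgeR adjusted p = 0.000801). ATG2B changed by 0.82 ± 0.29 (0.0458), a call lost without any of the PEO1 libraries but prexasertib A, and without the COV362 C library of either condition, at up to 0.264. Of 34 further hydrolase genes 4 rose and 4 fell. CTSS, a cathepsin gene best known from antigen-presenting cells, was at 5.48, 7.60 and 5.61 and 12.8, 14.6 and 13.9 CPM (1.14 ± 0.30, 0.0110), and CTSO, another cathepsin gene, listed on several sequences, at 1.04, 1.09 and 0.770 and 1.41, 2.20 and 2.29 CPM (1.02 ± 0.33, 0.0313). These cathepsin genes were thus higher with the drug where CTSB, CTSD and CTSZ were lower. The call of CTSS was lost without PEO1 DMSO A (0.0566) or C (0.0576), and that of CTSO without any PEO1 library but prexasertib A, at up to 0.134.

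Of 19 further lysosome membrane genes 3 rose and 4 fell in PEO1, with OSTM1, a partner of a lysosomal chloride transporter, at 30.2, 30.5 and 36.4 and 67.4, 60.7 and 71.5 CPM (log2 1.04 ± 0.18, edgeR adjusted p = 0.000895) and LAMP3 at 3.39, 4.51 and 2.86 and 5.81, 7.64 and 7.79 CPM (0.98 ± 0.35, 0.0474). The LAMP3 call was lost without any of the 6 PEO1 libraries and without COV362 DMSO B or C, at up to 0.183. Of 17 further proton pump genes 6 rose and 1 fell, with a median of 0.30. ATP6V1G1, a stalk subunit gene, was at 71.9, 70.3 and 66.8 and 151, 122 and 138 CPM (0.98 ± 0.12, 9.44e-05), and ATP6V0E2, the 1 that fell, at 129, 94.3 and 93.4 and 58.2, 48.9 and 55.1 CPM (−0.97 ± 0.21, 0.00426).

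Of 23 genes that control TFEB and mTORC1, 7 rose and 1 fell in PEO1. SESN3, a sestrin gene whose product restrains mTORC1, was at 0.261, 0.271 and 0.385 CPM in PEO1 DMSO and 3.11, 3.57 and 4.89 with prexasertib (log2 3.61 ± 0.33, edgeR adjusted p = 7.56e-06), still below its level in COV362 (16.8 to 25.5 CPM in DMSO). FLCN, the folliculin gene, whose product acts on the Rag GTPases that recruit TFEB and TFE3 to lysosomes, was at 17.3, 16.6 and 21.7 and 44.0, 38.7 and 46.8 CPM (1.22 ± 0.15, 9.37e-05). Of 8 genes of sorting to lysosomes only GGA2, an adaptor gene, was called, at 116, 129 and 116 and 88.4, 92.8 and 99.8 CPM (−0.36 ± 0.11, 0.0268). That call was lost without PEO1 DMSO B (0.0659) or PEO1 prexasertib A (0.0598) or B (0.0537).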

How the data were processed

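RNA-seq libraries were made with an unstranded TruSeq v2 kit, per the labels' protocols. STAR, Subread and featureCounts 1.4.6 with build hg38 are named in the submitters' processing notes, without their roles. Per the file headers, the deposited table holds read counts for each gene and library, not normalized, with the position and total length of its exons. How reads with several matches or in overlapping genes were treated is not given in the sources used here. Replicates were taken from the lettered titles.

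The counts were analysed in edgeR 4.0.16 (R 4.3.3): filterByExpr (minimum count 10, minimum total 15) kept 14498 genes, TMM factors scaled the libraries, and 1 quasi-likelihood fit of 4 group means to 12 libraries gave 8 residual degrees of freedom. Contrasts were prexasertib against DMSO in each line, their difference, and the lines at DMSO. P-values were adjusted by Benjamini-Hochberg over all tested genes. The SE is the absolute log2 fold change over the square root of F, and intervals are at 95%. CPM and RPKM were computed from the deposited counts. DESeq2 1.42.0, limma-voom (limma 3.58.1), other scalings, filters, a length correction and left-out libraries were alternatives. All 39 members were reported, and of each wider list the 2 called genes that changed most, among those averaging 1 CPM or more over the libraries of the line. The members, lists and motifs were chosen with earlier results of these data known.

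Whether letters pair the libraries was checked by correlating deviations from group means. The same-letter r was 0.410 (A), 0.423 (B) and 0.133 (C) in COV362, all over 0.1, and 0.302, 0.171 and 0.0813 in PEO1. The rule used took letters as pairing where all values were over 0.1, which held in COV362 only, but the split is not clean. The PEO1 values were positive as well, so the PEO1 letters were not shown to be unpaired. In COV362, DMSO B with prexasertib C reached 0.138, above C with C. In PEO1, DMSO C with prexasertib B reached 0.222, while DMSO A was at −0.330 with prexasertib B and −0.0241 with prexasertib C. All main values are nevertheless from the fit without a letter term. The fit with the letter as a block is an alternative, given beside the members whose COV362 call, or whose difference between the lines, it changed. It is also given beside some PEO1 changes. Promoter sequences are from RefSeq (GRCh38.p14). The lowest count of any member in a library was 8.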

Additional observations from a re-analysis of the deposited data

Results flagged for a closer look

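For 4 members the change with prexasertib differed between the lines by the test of the difference itself, edgeR's quasi-likelihood test with adjustment over all 14498 genes. The PEO1 change exceeded the COV362 change on the log2 scale by 1.08 for NEU1 (adjusted p = 0.0105), 0.92 for MAP1LC3B (0.0198), 0.90 for GABARAPL1 (0.0138) and 0.66 for ATG12 (0.0268). In all 4 the 3 treated PEO1 libraries were above the 3 PEO1 DMSO libraries. In COV362 that also held for NEU1, MAP1LC3B and GABARAPL1 but not for ATG12. Only the NEU1 call held without each library in turn, and it was lost with the exon length correction, which used the repeated length of NEU1. The ATG12 call was lost in 8 of the 12 fits that left out 1 library. The reason for the difference between the lines was not tested.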

How the results depend on the processing

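The alternatives reversed no called member's direction. Between the lines at DMSO, counts of called genes and members stayed within 1.5 times of the main ones. In COV362, 120 genes were called, and 1977 (832 higher, 1145 lower) with the replicate block, 533 in DESeq2, 10 with the COV362 libraries alone, 246 with an exon length correction, 1950 with that correction and the block, 330 without the A libraries and 35 at an adjusted p under 0.01. Of the members 8 were called with the block, 9 with correction and block, 0 with the COV362 libraries alone and 1 at 0.01. In PEO1, 4249 genes became 7446 with the block, 7627 with correction and block and 2319 at 0.01, and the 19 called members became 28 (17 higher, 11 lower) with the block and 9 at 0.01. Those gained in PEO1 with the block were GABARAP, GABARAPL2, OPTN, ULK1, BECN1, CTSA, GRN, LAMP2 and ATP6V1H. For the difference between the lines, 885 genes became 4906 with the block, 1966 in DESeq2, 1638 with the correction, 4826 with correction and block and 157 at 0.01, and the 4 called members became 20, 9 (DESeq2), 20 (correction and block) and 0 (at 0.01). The cause of these shifts was not tested. In PEO1, whose letters did not all pass the pairing check, the block is only a hint from the data. Leaving out 1 library at a time gave 27 to 128 genes and 0 to 4 members in COV362, 3011 to 5053 and 11 to 21 in PEO1, 328 to 1756 and 1 to 7 for the difference, and 7513 to 8901 and 23 to 26 between the lines. Higher calls made up 73.3% of those in COV362 but 58.9% with the length correction, and 51.4% of those for the difference but 41.2% with upper-quartile factors, which also moved the median of all genes between the lines to −0.11. Among the members, low counts limit TFEB and MITF most.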
